A study of Homo sapiens with 6 samples.

Results

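The 34 genes described here encode the enzymes of glycolysis and a set of hypoxia response genes. They comprise 21 genes of glycolysis and pyruvate use, from the hexokinases to pyruvate dehydrogenase kinase, and 13 genes of the hypoxia response, and were taken by symbol from a table of 26475 genes. Glucose and monocarboxylate transporters were not included. All 34 had a row in the table, 33 passed the filter on low counts, and the remaining gene, LDHB, had 0 counts in every library.

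HepG2, an established line from a human liver tumour, was studied in 2 forms, 1 expressing TAF2, a part of the TFIID complex that binds promoters, and 1 expressing the fluorescent protein eGFP as the control. Total RNA was sequenced from 3 libraries per group. The sources used here do not give the vector or its promoter, whether a group was 1 clone or a pool, whether the deposited TAF2 count includes the introduced sequence, the oxygen level, or the glucose content of the medium. Since separate cultures are not stated for the replicates, p-values cover the variation among these libraries alone, and that variation may be technical.

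Glycolysis splits glucose into pyruvate in the cytosol, and lactate dehydrogenase can turn that pyruvate into lactate. Several steps have isozymes encoded by separate genes, of which liver cells, muscle and tumour cells use different ones. Hypoxia-inducible factors (HIFs) are transcription factors whose alpha subunits are hydroxylated by oxygen-dependent EGLN enzymes and then degraded through the VHL ubiquitin ligase. When oxygen is low the alpha subunits persist, pair with ARNT and bind short DNA elements with the core letters ACGTG or GCGTG near genes for glycolysis, blood vessel growth, mitophagy and matrix modification.

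The letters ACGTG stood before the start sites of a larger share of these genes than of all genes. RefSeq start sites (GRCh38.p14) were found for 31 of the 34 genes, all but BNIP3L, VEGFA and NDRG1. Reading both strands (ACGTG or its reverse complement CACGT, which overlap in CACGTG), 20 of the 31 genes (64.5%) held a match in the 250 bases before at least 1 start, against 21.7% of 27305 genes with such a window. The share was 58.3% of the 12 genes called lower, 25.0% of the 4 called higher (1 gene) and 85.7% of the 14 not called. With GCGTG and its complement CACGC also counted, 83.9% of the 31 genes and 47.4% of all genes held a match. Counted by window, matches stood in 40.4% of the 57 windows of these genes and 18.5% of all windows. In that count genes with several starts weigh more, such as HK1 and PFKM with 7 windows each. A match is a run of letters and not a measured binding site. These genes were listed as glycolytic enzymes and HIF targets, and the 27305 genes were not limited to those tested here. The comparison is therefore a description. The sequences below are the 250 bases before a start for 4 genes that fell with TAF2 (LDHA, BNIP3, ANKRD37, ALDOC), 1 that did not pass the test (PGK1) and 1 that rose (HIF1A), printed 5′ to 3′ on the gene's strand with ACGTG and CACGT in capitals. They lie at chr11:18394313-18394562 (plus strand), chr10:131981924-131982173 (minus), chr4:185396591-185396840 (plus), chr17:28576896-28577145 (minus), chrX:78103998-78104247 (plus) and chr14:61695263-61695512 (plus).
LDHA: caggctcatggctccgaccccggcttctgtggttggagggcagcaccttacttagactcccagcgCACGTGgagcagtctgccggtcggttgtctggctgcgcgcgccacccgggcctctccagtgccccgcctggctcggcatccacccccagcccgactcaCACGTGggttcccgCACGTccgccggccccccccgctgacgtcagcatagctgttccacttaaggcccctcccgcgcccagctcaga
BNIP3: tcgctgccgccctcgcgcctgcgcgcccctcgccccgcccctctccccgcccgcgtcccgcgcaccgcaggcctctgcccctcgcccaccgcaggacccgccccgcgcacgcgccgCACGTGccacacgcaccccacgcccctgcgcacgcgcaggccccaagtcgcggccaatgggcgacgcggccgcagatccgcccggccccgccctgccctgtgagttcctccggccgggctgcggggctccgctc
ANKRD37: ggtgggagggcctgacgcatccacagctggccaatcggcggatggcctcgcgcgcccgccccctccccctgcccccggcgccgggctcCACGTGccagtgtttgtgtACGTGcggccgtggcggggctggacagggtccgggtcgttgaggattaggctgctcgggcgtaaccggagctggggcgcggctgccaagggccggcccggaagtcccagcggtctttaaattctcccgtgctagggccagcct
ALDOC: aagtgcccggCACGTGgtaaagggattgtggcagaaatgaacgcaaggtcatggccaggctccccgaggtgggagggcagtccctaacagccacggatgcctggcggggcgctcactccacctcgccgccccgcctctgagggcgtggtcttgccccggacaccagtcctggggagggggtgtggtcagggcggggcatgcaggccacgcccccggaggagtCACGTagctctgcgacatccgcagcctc
PGK1: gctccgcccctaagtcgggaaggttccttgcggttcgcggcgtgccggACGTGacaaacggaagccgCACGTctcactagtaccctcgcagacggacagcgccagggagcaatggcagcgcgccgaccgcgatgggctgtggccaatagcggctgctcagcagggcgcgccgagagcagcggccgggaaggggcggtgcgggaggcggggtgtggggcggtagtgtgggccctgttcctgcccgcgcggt
HIF1A: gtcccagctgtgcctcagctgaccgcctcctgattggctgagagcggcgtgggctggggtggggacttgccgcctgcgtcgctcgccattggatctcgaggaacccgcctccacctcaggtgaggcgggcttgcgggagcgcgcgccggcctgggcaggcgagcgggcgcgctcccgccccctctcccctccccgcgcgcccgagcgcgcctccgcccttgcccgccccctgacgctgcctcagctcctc
LDHA held 3 separate runs, beginning 185, 87 and 73 bases before the start, and ANKRD37 (162 and 143), ALDOC (240 and 28) and PGK1 (202 and 183) held 2 each. BNIP3 held 1, at 134 bases. HIF1A held 0 of these runs, in this window and in that of its other start. The window of HIF1A shown holds the other core, GCGTG, which is not in capitals. For genes with several starts, the window with the most matches is shown, and LDHA held a match in 1 of its 2 windows. The genes shown are examples and do not stand for their groups. PFKL, PFKFB4, ENO1, EGLN3 and ADM fell without an ACGTG match, and PFKFB3, which rose, held a match in 1 of its 2 windows.

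Library totals ran from 22276308 to 28024004 counts, and levels below are in CPM, a gene's count relative to its library's TMM-scaled total. TAF2 itself was at 35.8, 40.4 and 37.5 CPM in eGFP replicates 1 to 3 and at 50.04, 48.3 and 47.3 CPM in TAF2 replicates 1 to 3, a 1.28-fold difference (log2 fold change 0.36, SE 0.0459, edgeR adjusted p = 1.44e-08). All 12 hepatocyte markers examined exceeded 1 CPM, and their summed level was 54400 to 55700 CPM in eGFP and 44300 to 46100 CPM in TAF2 libraries. APOB, at a mean of 21320 CPM over all libraries, weighs most in that sum, whereas TTR and FGB were at 65.5 and 75.3 CPM. The sum does not give the direction of each marker. Of markers of other cell types, PTPRC, CD3E, DCN, LUM and KDR were at 0, and 0 of 4 endothelial, 2 of 6 fibroblast and 3 of 6 leukocyte markers reached 1 CPM. LYZ, a leukocyte marker, was at 2097 CPM, and the leukocyte sum was 1940 to 2060 CPM in eGFP and 2270 to 2320 CPM in TAF2 libraries. The fibroblast sum was 8.14 to 9.22 CPM and 20.4 to 21.8 CPM, mostly PDGFRB. The part of these markers in the results below was not tested. Fewer cells with a transcript and less of it per cell cannot be told apart in such bulk libraries. eGFP replicate 2 had the largest share of 28S ribosomal RNA, 1.26% against 0.758% to 0.923% in the other libraries.

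Of the 16 genes of the glycolytic steps, 11 did not pass the test between the groups, while PKM and PKLR, the pyruvate kinase genes, and the lactate dehydrogenase gene LDHA did. At a Benjamini-Hochberg adjusted p of 0.05 over all 12902 tested genes, 14 of 33 members fell with TAF2 and 4 rose. Among all tested genes 43.0% were called (22.4% lower and 20.6% higher), and among those of at least 100 CPM 63.1% (26.0% lower and 37.1% higher). Among the 16 step genes 31.2% were called (4 lower and 1 higher), and among the 13 hypoxia genes 69.2% (7 lower and 2 higher). The latter total was near that of all genes of at least 100 CPM, but among those more were higher than lower. Several of the 13 hypoxia genes lay below 100 CPM, so the 2 sets do not match in level. The difference between these shares was not tested. The 18 called members were the ones whose groups did not overlap, a state that 50.6% of all tested genes shared (26.1% lower and 24.5% higher). The median log2 fold change was -0.05 over the 33 members, -0.03 over the 20 tested glycolysis and pyruvate genes and -0.15 over the 13 hypoxia genes, against -0.0028 over all tested genes. Members ranged from -0.65 to 0.24, so differences were modest, and 0 members were called in a test that asked for more than a 1.5-fold change.

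**Figure D1:**
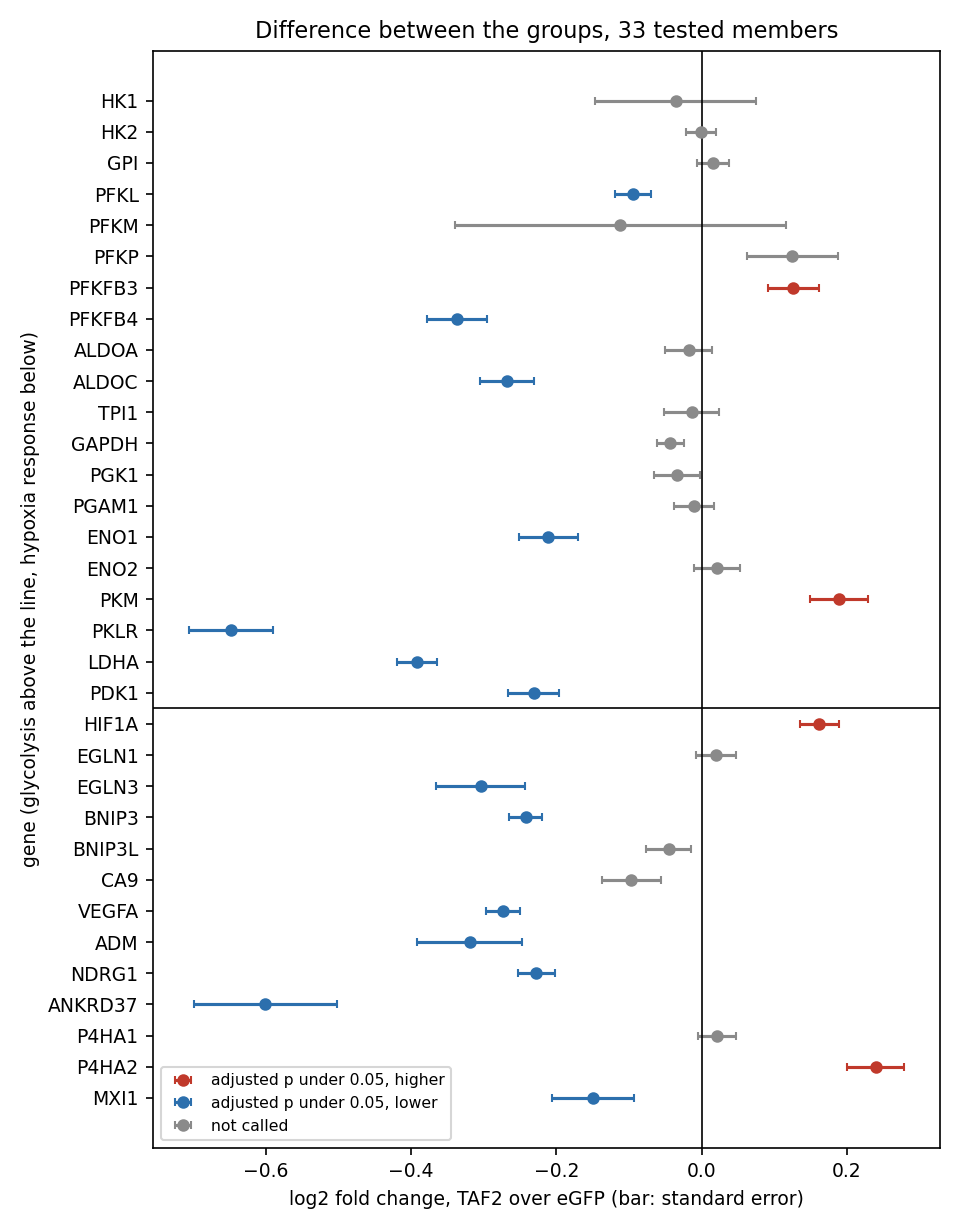
Log2 fold change of TAF2 over eGFP (horizontal axis) for the 33 tested genes (vertical axis), with bars of 1 standard error and colour for the edgeR call. PKLR at -0.65 and ANKRD37 at -0.60 lie farthest left, and P4HA2 at 0.24 farthest right.

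The upper steps of glycolysis were carried by a few isozymes whose levels were close in the 2 groups. HK2, the hexokinase typical of tumour cells, was at 543, 540 and 542 CPM in eGFP and 536, 542 and 545 CPM in TAF2 libraries (log2 fold change -0.0013, SE 0.0209, edgeR adjusted p = 0.968). HK1, the hexokinase of most tissues, was at 5.94 to 7.06 CPM in eGFP and 5.55 to 7.06 CPM in TAF2 libraries. Per kilobase of transcript, HK2 made up 98.2% of the pair in each group. That share leaves out HKDC1, a further hexokinase gene that is not a member and stood above HK1. HKDC1 was at 59.5 ± 1.26 CPM in eGFP and 57.6 ± 2.01 CPM in TAF2 libraries (SD, n = 3 each; log2 fold change -0.05, edgeR adjusted p = 0.339). GPI, which converts glucose 6-phosphate to fructose 6-phosphate, was at 534 to 557 CPM in eGFP and 544 to 566 CPM in TAF2 libraries (log2 fold change 0.02, edgeR adjusted p = 0.612). Neither the hexokinases nor GPI differed by more than the spread between libraries.

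Phosphofructokinase 1, the main control point of the pathway, was mostly the liver form PFKL, and that form fell slightly. PFKL was at 263, 247 and 256 CPM in eGFP and 243, 239 and 236 CPM in TAF2 libraries (log2 fold change -0.09, SE 0.0249, edgeR adjusted p = 0.00185). Every TAF2 library was below every eGFP library, but the gap between the closest pair was small against the eGFP spread. The platelet form PFKP was at 18.2 to 20.7 CPM in eGFP and 20.6 to 22.8 CPM in TAF2 libraries (0.12, adjusted p = 0.108 by edgeR). The muscle form PFKM stayed under 2 CPM, at 1.35 to 1.72 CPM and 1.09 to 1.77 CPM, and its row overlaps SENP1. Per kilobase, PFKL made up 92.4% of PFKL and PFKP in eGFP and 91.2% in TAF2 libraries.

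PFKFB3 and PFKFB4, bifunctional enzymes that make and remove fructose 2,6-bisphosphate, the activator of phosphofructokinase 1, moved in opposite directions. PFKFB4 (chromosome 3, 48517684 to 48563136) was at 107, 97.7 and 109 CPM in eGFP and 79.6, 81.2 and 87.6 CPM in TAF2 libraries, 0.792-fold (log2 fold change -0.34, SE 0.0412, edgeR adjusted p = 1.06e-06). PFKFB3 (chromosome 10, 6144921 to 6326637) was at 77.1, 77.8 and 73.3 CPM in eGFP and 80.0, 83.9 and 85.0 CPM in TAF2 libraries (0.13, SE 0.0351, edgeR adjusted p = 0.00315). In each case the groups were apart. Of the other genes of this family, PFKFB1 fell at a low level, from 1.54 ± 0.216 to 0.816 ± 0.206 CPM (SD, n = 3 each; -0.91, edgeR adjusted p = 0.00355), and PFKFB2 was at 21.1 ± 0.458 and 21.7 ± 0.793 CPM (0.04, edgeR adjusted p = 0.636). The log2 ratio of PFKFB4 to PFKFB3 within a library, with 0.5 CPM added to each, was 0.45 ± 0.121 in eGFP and -0.0041 ± 0.0444 in TAF2 libraries (n = 3 each, with SD; exact two-sided permutation p = 0.1, adjusted p = 0.138 over 11 pairs). A p of 0.1 is the smallest that 3 libraries against 3 can give, so this test cannot pass 0.05 for any pair.

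Aldolase and the triose steps, which run from fructose 1,6-bisphosphate to 2-phosphoglycerate, were nearly level apart from the minor aldolase. ALDOA was at 2910, 2684 and 2846 CPM in eGFP and 2702, 2764 and 2870 CPM in TAF2 libraries, with overlapping groups (log2 fold change -0.02, edgeR adjusted p = 0.704). The brain form ALDOC was at 71.7, 68.5 and 71.1 CPM in eGFP and 58.7, 58.0 and 59.0 CPM in TAF2 libraries (-0.27, SE 0.0367, edgeR adjusted p = 7.12e-08). ALDOC thus fell by more than the library spread, and its per-kilobase share of the pair was 1.97% in eGFP and 1.66% in TAF2 libraries. TPI1, triose phosphate isomerase, had a log2 fold change of -0.01, PGAM1, phosphoglycerate mutase, of -0.01, and PGK1, which makes the first ATP of the pathway, of -0.03. GAPDH, the glyceraldehyde phosphate dehydrogenase often used as a reference gene, was at 3410, 3250 and 3355 CPM in eGFP and 3214, 3215 and 3293 CPM in TAF2 libraries (-0.04, SE 0.0192, edgeR adjusted p = 0.0674). Its groups overlapped, since TAF2 replicate 3 lay above eGFP replicate 2. PGAM1 had estimated counts that were not whole in 6 of 6 libraries, from 14771.51 to 20058.1, and its near-identical copy PGAM4 had 3.25 to 11.9.

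Enolase, which makes phosphoenolpyruvate, fell in its main form. ENO1 (chromosome 1, 8861000 to 8878686) was at 4031, 3663 and 3892 CPM in eGFP and 3237, 3336 and 3438 CPM in TAF2 libraries (log2 fold change -0.21, SE 0.0411, edgeR adjusted p = 0.00806). Its groups did not overlap, although the eGFP libraries ranged over more than the gap between the groups. The neuronal form ENO2 was at 102 to 111 CPM in eGFP and 105 to 110 CPM in TAF2 libraries (0.02, adjusted p = 0.622 by edgeR). Of the 10 nearest tested genes around ENO1, 6 were called lower and 1 higher, and their median was -0.15 on the log2 scale. The part of that neighbourhood in the fall of ENO1 was not tested.

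Pyruvate kinase, the last step, showed the widest split among the 11 isozyme pairs compared. PKM (chromosome 15, 72199029 to 72231591), the form of muscle and of proliferating cells, was at 1658, 1499 and 1591 CPM in eGFP and 1761, 1792 and 1862 CPM in TAF2 libraries (log2 fold change 0.19, SE 0.0400, edgeR adjusted p = 0.00838). PKLR (chromosome 1, 155289293 to 155308654), the form of liver and red cells, was at 30.5, 28.2 and 28.5 CPM in eGFP and 18.1, 18.2 and 19.3 CPM in TAF2 libraries, 0.638-fold (-0.65, SE 0.0575, edgeR adjusted p = 1.40e-12). In both genes the libraries of the 2 groups were apart. The log2 ratio of PKLR to PKM was -5.74 ± 0.0330 in eGFP and -6.57 ± 0.0140 in TAF2 libraries (n = 3 each, with SD; difference -0.82, exact two-sided permutation p = 0.1). The sum of hepatocyte markers given above, in which APOB weighs most, was also lower in TAF2 libraries. The part of these markers in the fall of PKLR was not tested. PKLR was a minor form in each group, at 1.60% of the pair per kilobase in eGFP and 0.899% in TAF2 libraries. The table gives 1 value per gene, so the M1 and M2 splice forms of PKM cannot be told apart. PKLR overlaps HCN3, which was at 5.91 ± 0.884 CPM in eGFP and 6.08 ± 0.582 CPM in TAF2 libraries (n = 3 each, with SD).

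At the end of the pathway, the lactate dehydrogenase gene LDHA and the kinase PDK1, which inhibits pyruvate dehydrogenase, fell. LDHA (chromosome 11, 18394563 to 18408425) was at 2726, 2570 and 2658 CPM in eGFP and 1953, 2004 and 2107 CPM in TAF2 libraries, 0.762-fold (log2 fold change -0.39, SE 0.0277, edgeR adjusted p = 3.72e-08). Its lowest eGFP library lay far above its highest TAF2 library. Of the 10 nearest tested genes 8 were also called lower and 0 higher, with a median of -0.33, and the 591 other genes of chromosome 11 with at least 5 CPM had a median of -0.27, with 94.6% of them lower. The part of this chromosome-wide shift in the fall of LDHA was not tested. LDHB, the heart form, had 0 counts in all 6 libraries, which allows up to 0.107 to 0.135 CPM per library for counting error alone, so no ratio of the 2 forms can be given. Whether the gene was silent or its reads were not assigned to this row was not tested. PDK1 was at 83.7, 80.7 and 84.1 CPM in eGFP and 71.6, 67.6 and 72.5 CPM in TAF2 libraries (-0.23, SE 0.0354, edgeR adjusted p = 7.14e-07).

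The 16 genes of the glycolytic steps, from hexokinase to pyruvate kinase, varied together between libraries of a group. Their summed level was 15978, 14838 and 15612 CPM in eGFP replicates 1 to 3 and 14646, 14918 and 15375 CPM in TAF2 replicates 1 to 3, or 15476 ± 582 and 14980 ± 368 CPM (SD, n = 3 each). The sums overlapped between the groups. eGFP replicate 2 was the lowest eGFP library for 15 of the 16 genes, against 36.2% of all tested genes, and TAF2 replicate 3 the highest TAF2 library for 13 of 16, against 33.4%. Without ENO1, the other 15 genes summed to 11614 ± 397 CPM in eGFP and 11643 ± 269 CPM in TAF2 libraries (n = 3 each, with SD). That sum keeps PKM, whose mean rose from 1583 to 1805 CPM, so near-equal sums do not mean that each gene was level. Without eGFP replicate 2, the library with the most 28S RNA, GAPDH (-0.06, edgeR adjusted p = 0.00835) and PGK1 (-0.06, adjusted p = 0.0141) were called lower as well. Without eGFP replicate 1 the values moved the other way, to -0.02 for GAPDH (edgeR adjusted p = 0.39) and -0.0055 for PGK1 (0.909), and without TAF2 replicate 1 PGK1 was at -0.005 (0.908).

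**Figure D2:**
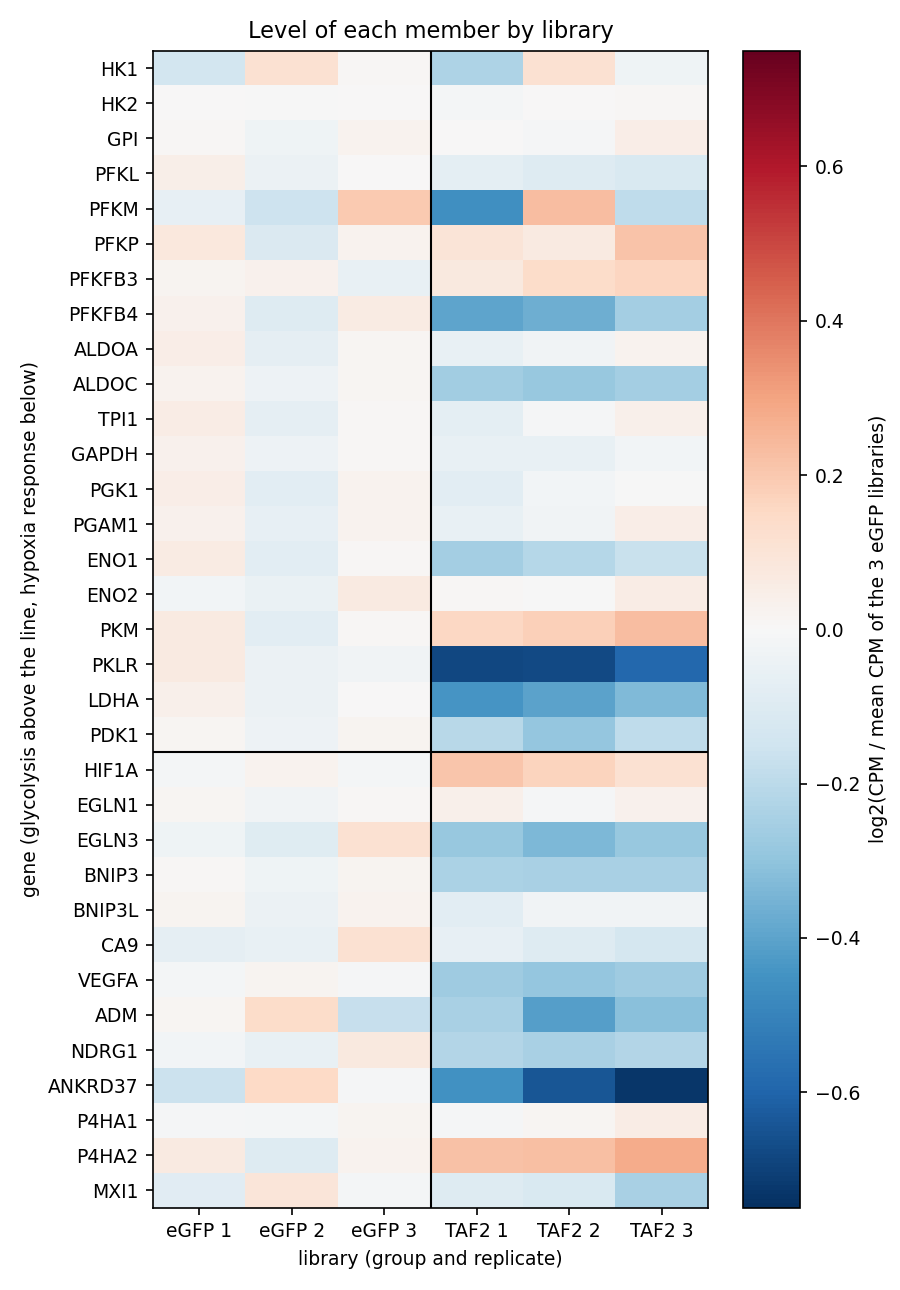
Level of each tested gene (rows) in each of the 6 libraries (columns), as the log2 ratio of its CPM to the mean of the 3 eGFP libraries. LDHA, PKLR, BNIP3, VEGFA and ANKRD37 are blue (lower) in all 3 TAF2 columns, PKM, HIF1A and P4HA2 are red (higher), and the column of eGFP replicate 2 is faintly blue over most glycolysis genes.

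Among the HIF subunits and their oxygen sensors, the mRNA of HIF1A rose while that of EGLN3 fell. HIF1A (chromosome 14, 61695513 to 61748258), the alpha subunit of HIF-1, was at 156, 160 and 155 CPM in eGFP and 181, 176 and 170 CPM in TAF2 libraries (log2 fold change 0.16, SE 0.0269, edgeR adjusted p = 3.16e-06). EGLN3, a HIF prolyl hydroxylase that is itself a HIF target, was at 23.9, 22.8 and 26.4 CPM in eGFP and 20.0, 19.3 and 20.0 CPM in TAF2 libraries (-0.30, SE 0.0607, edgeR adjusted p = 6.37e-05). These groups were apart in both genes. EGLN1, the main HIF prolyl hydroxylase, was at 139 to 143 CPM in eGFP and 140 to 145 CPM in TAF2 libraries (0.02, adjusted p = 0.591 by edgeR). Antisense RNAs that overlap HIF1A, HIF1A-AS1 and HIF1A-AS2, were under 0.06 CPM on average in either group. HIF activity depends mainly on the alpha protein, which was not measured here.

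The secreted signals of the hypoxia response fell. VEGFA, the growth factor for blood vessels (chromosome 6, 43770211 to 43786487), was at 284, 291 and 285 CPM in eGFP and 238, 234 and 239 CPM in TAF2 libraries (log2 fold change -0.27, SE 0.0234, edgeR adjusted p = 4.88e-13). ADM, the vasodilator peptide adrenomedullin (chromosome 11, 10305073 to 10307397), was at 41.6, 45.2 and 36.4 CPM in eGFP and 34.8, 30.8 and 33 CPM in TAF2 libraries (-0.32, SE 0.0719, edgeR adjusted p = 0.00306). VEGFA varied little within a group, whereas the ADM libraries of the 2 groups nearly touched. Around ADM, 7 of the 10 nearest tested genes were called lower and 0 higher (median -0.22). The median of chromosome 11, -0.27 as given for LDHA, was close to the change of ADM, and the part of the neighbours and the chromosome in its fall was not tested.

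Of the mitophagy receptors, which mark mitochondria for removal, BNIP3 fell. It was at 383, 372 and 386 CPM in eGFP and 322, 321 and 321 CPM in TAF2 libraries (log2 fold change -0.24, SE 0.0225, edgeR adjusted p = 4.91e-12). TAF2 libraries were almost equal and well below the eGFP ones. PPP2R2D, whose annotated span overlaps BNIP3, was at 38.2 ± 1.31 and 35.1 ± 0.739 CPM (SD, n = 3 each; log2 fold change -0.12). The related BNIP3L was at 98.0 to 103 CPM in eGFP and 95.7 to 99.5 CPM in TAF2 libraries (-0.05, edgeR adjusted p = 0.254).

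The stress genes NDRG1 and ANKRD37 fell as well. NDRG1, a differentiation and stress gene strongly induced by low oxygen, was at 370, 360 and 394 CPM in eGFP and 322, 317 and 321 CPM in TAF2 libraries (log2 fold change -0.23, SE 0.0258, edgeR adjusted p = 7.48e-09). ANKRD37 (chromosome 4, 185396841 to 185400723), a small ankyrin repeat protein gene, was at 9.59, 11.9 and 10.7 CPM in eGFP and 7.82, 6.87 and 6.46 CPM in TAF2 libraries, 0.659-fold (-0.60, SE 0.0988, edgeR adjusted p = 2.73e-06). The groups were apart in both, with a wider relative spread in the low-level ANKRD37. Its row overlaps UFSP2, which fell by 0.22 on the log2 scale (edgeR adjusted p = 0.0177), and 9 of its 10 nearest tested genes were called lower (median -0.30). The shift spanned chromosome 4, where 89.3% of 355 other genes of at least 5 CPM were lower (median -0.18). The part of these neighbours and of the chromosome was not tested.

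Collagen prolyl hydroxylases, which stabilise the collagen helix, split by isozyme. P4HA2 was at 64.1, 57.3 and 62.4 CPM in eGFP and 71.2, 71.7 and 74.4 CPM in TAF2 libraries (log2 fold change 0.24, SE 0.0389, edgeR adjusted p = 2.20e-06). P4HA1 was at 159 to 163 CPM in eGFP and 160 to 167 CPM in TAF2 libraries (0.02, edgeR adjusted p = 0.543). P4HA2 was thus the hypoxia gene that moved most in the direction opposite to VEGFA and BNIP3. CA9, the membrane carbonic anhydrase that acidifies the outside of hypoxic cells, was at 72.8, 73.4 and 82.6 CPM in eGFP and 73.1, 71.4 and 69.5 CPM in TAF2 libraries (-0.10, edgeR adjusted p = 0.0562). Its groups overlapped, and eGFP replicate 3 was the highest library. Without that library the log2 fold change was -0.04 (edgeR adjusted p = 0.534), whereas without eGFP replicate 1 (adjusted p = 0.0205) or eGFP replicate 2 (0.0336) it passed the threshold.

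MXI1, which antagonises MYC by pairing with MAX, was at 26.8, 30.3 and 28.1 CPM in eGFP and 26.5, 26.2 and 23.9 CPM in TAF2 libraries (log2 fold change -0.15, SE 0.0565, edgeR adjusted p = 0.0291). Its libraries nearly touched between groups, and the call did not hold with DESeq2 (adjusted p = 0.120) or without eGFP replicate 2 (0.209), eGFP replicate 3 (0.0549) or TAF2 replicate 3 (0.205). The 13 hypoxia genes together summed to 1835, 1821 and 1876 CPM in eGFP and 1697, 1677 and 1689 CPM in TAF2 libraries. Unlike the sums of the glycolytic steps, these sums did not overlap. Abundant genes weigh most in such a sum. The most abundant of the 13 were BNIP3 (mean 380 CPM in eGFP and 322 CPM in TAF2 libraries), NDRG1 (375 and 320 CPM) and VEGFA (287 and 237 CPM). The lower sum therefore does not show a joint fall of the 13 genes.

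**Figure D3:**
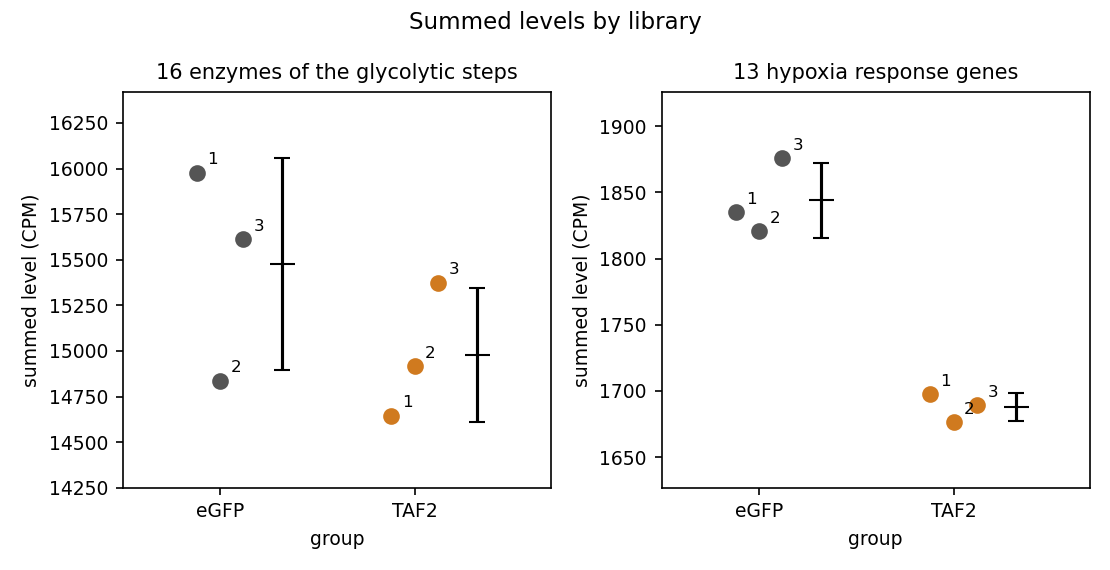
Summed CPM (vertical axes, which do not start at 0) of the 16 genes of the glycolytic steps (left) and of the 13 hypoxia response genes (right) in each library, numbered by replicate, with the mean and SD of each group. The glycolysis sums overlap between groups, and the hypoxia sums are 1821 CPM or more in eGFP and 1697 CPM or less in TAF2 libraries. BNIP3, NDRG1 and VEGFA, which fell, hold the largest parts of the hypoxia sums.

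Isozyme ratios were compared for 11 pairs, and a ratio within a library does not depend on how libraries are scaled, apart from the added 0.5 CPM. The ratios of 8 pairs did not overlap between the groups. Each of these pairs holds a gene that was itself called, so this count is not separate from the calls of single genes. Among all tested single genes 50.6% did not overlap, and the share for pairs of other genes was not computed. The pairs with the largest differences were PKLR to PKM (-0.82 on the log2 scale), PFKFB4 to PFKFB3 (-0.46) and EGLN3 to EGLN1 (-0.31), followed by ALDOC to ALDOA (-0.25), ENO2 to ENO1 (0.23), P4HA2 to P4HA1 (0.22), PFKL to PFKP (-0.22) and BNIP3L to BNIP3 (0.20). Each of these had an exact two-sided permutation p of 0.1, the smallest possible. HK2 to HK1 (0.04), PFKL to PFKM (-0.0007) and PFKP to PFKM (0.22) overlapped, and their minor forms had few counts.

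The position of a gene in the genome went with its fold change for some members. ENO1, LDHA, ADM and ANKRD37, 4 of the 14 that fell, had neighbours with medians from -0.33 to -0.15. Each of these genes had a lower value than its neighbours' median, but the gap was not tested. ENO1 was at -0.21 (SE 0.0411) against -0.15, or -0.17 with 10 neighbours on each side. ADM was at -0.32 (SE 0.0719) against -0.22, and -0.27 for its chromosome. In both, the gap was of the order of the standard error. The neighbours of the other 10 that fell had medians between -0.10 (VEGFA) and 0.07 (EGLN3). Around PKLR the median was -0.02, around BNIP3 0.03, around NDRG1 0.05 and around PFKFB4 0.03. Among the members that rose, P4HA2 had neighbours with a median of -0.06, HIF1A of 0.0078 and PKM of 0.05. PFKFB3 was at 0.13 (SE 0.0351) against 0.08, or 0.09 with 10 neighbours on each side. That gap was also of the order of the standard error. In a fit without the genes of chromosomes 4 and 11, left out because of the chromosome-wide shifts given above, which drops LDHA, ADM and ANKRD37, 13 of the remaining members were called lower, since GAPDH (edgeR adjusted p = 0.0235) and CA9 (0.0374) then passed.

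**Figure D4:**
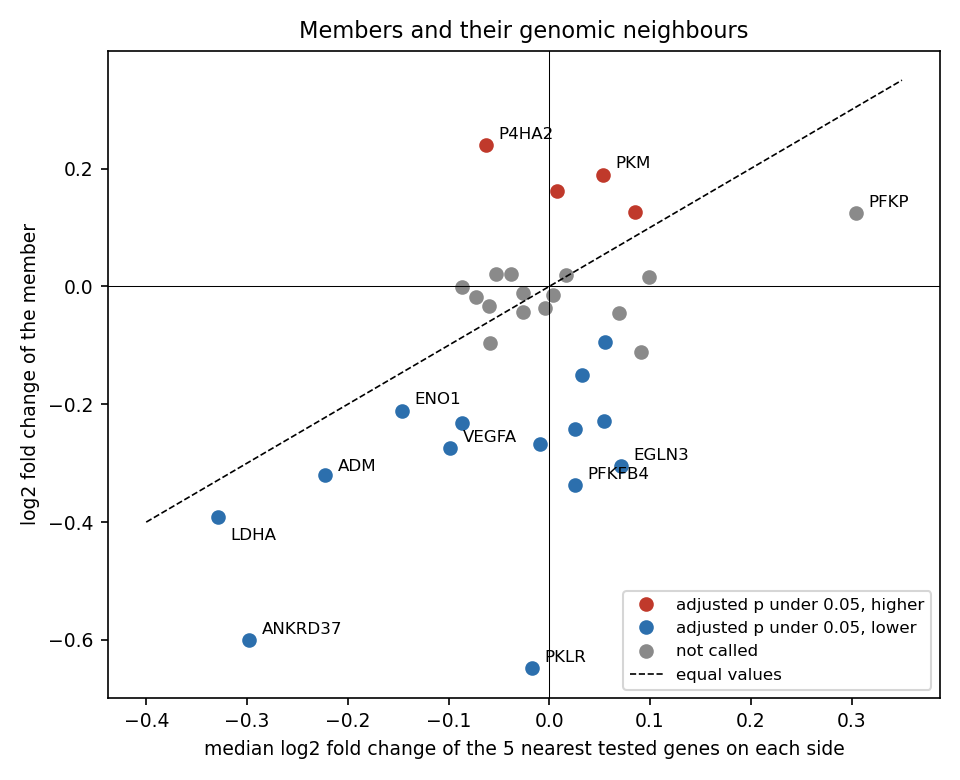
Log2 fold change of each tested member (vertical axis) against the median log2 fold change of the 5 nearest tested genes on each side (horizontal axis), coloured by the edgeR call, with a dashed line of equal values. LDHA, ADM, ANKRD37 and ENO1 lie to the left with neighbours that were also lower, and PKLR lies low with neighbours near 0.

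Among other genes that handle glucose phosphates and pyruvate, 22 of 29 listed were tested, 10 fell and 5 rose, against 22.4% lower and 20.6% higher over all tested genes, and the median was -0.12 on the log2 scale. The number that rose was 3 with DESeq2, with the replicate number as a block, or without chromosomes 4 and 11, and in the last of these fits 7 fell. PGM1, which links glycogen to glycolysis, went from 177 ± 3.68 to 127 ± 4.17 CPM (SD, n = 3 each; -0.48, edgeR adjusted p = 2.84e-18), and the muscle enolase ENO3 from 16.6 ± 1.46 to 9.55 ± 0.662 CPM (-0.79, edgeR adjusted p = 7.98e-11). Subunits of the pyruvate dehydrogenase complex differed in direction. PDHX (-0.33) and DLAT (-0.30), both on chromosome 11, fell, while the E1 subunit PDHA1 (0.07) and the E3 subunit DLD (0.11) rose slightly. TIGAR, a fructose bisphosphatase that slows glycolysis, rose by 0.29, and PDP1, the phosphatase that reactivates pyruvate dehydrogenase, rose by 0.72 at a low level of 2.21 ± 0.109 to 3.63 ± 0.0871 CPM (SD, n = 3 each). HK3, PGAM2 and PGK2 were at 0 in all libraries.

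Of 19 genes that regulate HIF, 17 were tested, 3 fell and 3 rose (35.3% called, against 43.0% of all tested genes), with a median of 0.04, and 1 rose with DESeq2, without eGFP replicate 3 or without TAF2 replicate 3. EPAS1, the alpha subunit of HIF-2, was at 308, 322 and 323 CPM in eGFP and 246, 257 and 254 CPM in TAF2 libraries (log2 fold change -0.33, SE 0.0244, edgeR adjusted p = 4.94e-15). It thus fell while HIF1A rose. CITED2, which competes with HIF alpha subunits for the coactivators EP300 and CREBBP, went from 92.7 ± 3.10 to 50.2 ± 2.33 CPM (SD, n = 3 each; -0.88, SE 0.0380, edgeR adjusted p = 1.13e-22), the largest change of this list. VHL, which recognises hydroxylated HIF, fell by 0.18 on the log2 scale (edgeR adjusted p = 1.89e-06). The chaperone HSP90AA1 (0.17), the hydroxylase EGLN2 (0.13) and the ubiquitin ligase subunit RBX1 (0.11) rose. ARNT, the partner of both alpha subunits, was at 34.9 ± 1.56 and 32.4 ± 1.00 CPM (SD, n = 3 each; edgeR adjusted p = 0.0747), and ARNT2 and HIF3A were too low to test.

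Of 44 further HIF target genes 39 were tested, 23 fell and 5 rose, against 22.4% lower and 20.6% higher over all tested genes (26.0% and 37.1% at 100 CPM or more), the median being -0.14 on the log2 scale, and 2 of the 23 lie on chromosome 4 or 11. EPO, the hormone erythropoietin, was at 17.2, 16.6 and 18.0 CPM in eGFP and 10.5, 10.3 and 12.02 CPM in TAF2 libraries (-0.65, SE 0.0764, edgeR adjusted p = 2.10e-09). PLOD2, a collagen lysyl hydroxylase, went from 372 ± 9.04 to 294 ± 10.8 CPM (SD, n = 3 each; -0.34, edgeR adjusted p = 4.94e-14), and the ectonucleotidase NT5E from 33.5 ± 0.833 to 22.6 ± 0.280 CPM (-0.57, edgeR adjusted p = 3.25e-12). The genes that rose included the insulin-like growth factor binding proteins IGFBP1, from 605 ± 23.9 to 1217 ± 47.0 CPM (SD, n = 3 each; 1.01, edgeR adjusted p = 3.40e-10), and IGFBP3 (1.25), with ANKZF1 (0.29) and the haem oxygenase HMOX1 (0.27). Many of these genes also respond to other signals, and the list was chosen with results of these data known, so its counts are a description.

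**Figure D5:**
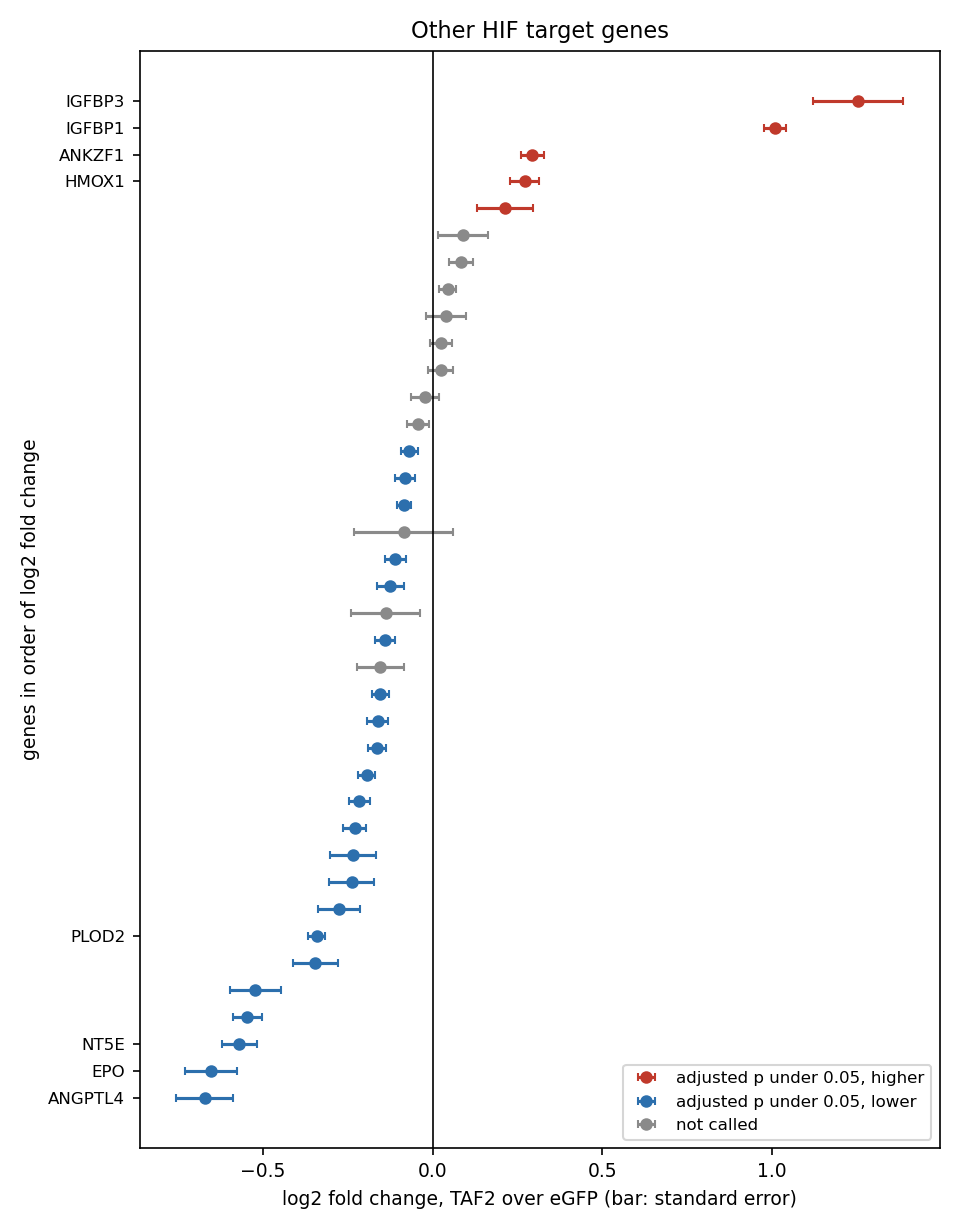
Log2 fold change of TAF2 over eGFP (horizontal axis, bars of 1 standard error) for tested genes of the further HIF target list (vertical axis, those described in the text named), ordered by value and coloured by the edgeR call. ANGPTL4 and EPO are lowest at -0.67 and -0.65, and IGFBP3 and IGFBP1 stand apart at 1.25 and 1.01.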

How the data were processed

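RNA was sequenced from 3 eGFP and 3 TAF2 libraries of HepG2 cells. The authors deposited expected counts per gene, made with RSEM on hg38 per the submitters' processing notes and not normalized. Sources used here name no aligner, annotation release or strand setting, so whether strand was used to separate reads of overlapping genes is not known. RSEM divides reads that match several genes, and 4.18% to 4.45% of values per library were not whole. The counts of PFKM, PKLR, HIF1A, BNIP3 and ANKRD37, which overlap other genes, were whole in every library.

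Counts were rounded, filtered with filterByExpr and scaled by TMM (factors 0.9975 to 1.003), then tested with edgeR 4.0.16 in R 4.3.3 (quasi-likelihood, group as the one term), with p-values adjusted by Benjamini-Hochberg over 12902 genes. DESeq2 1.42.0 was an alternative. The test was checked on simulated counts. It recovered 14 of 50 genes given a 1.1-fold change, 33 of 49 given 1.25-fold and 46 of 49 given 2-fold, and called 17 unchanged genes. Small differences can thus be missed, and a gene that did not pass the test is not shown to be level. Coordinates come from a RefSeq table (GRCh38.p14) matched by transcript accession. Transcript lengths are means over GENCODE 29 transcripts tied to the same accessions and are approximate. Within a group, libraries varied beyond sampling noise (chi-square over its degrees of freedom, 1.98 to 5.84). The members and lists were chosen with earlier results of these data known. Named genes are all members, TAF2, and up to 4 called rises and 4 called falls with the smallest p in each of the 3 further lists. ANGPTL4, and genes at 0 or too low to test, were named after their values were seen, as were ARNT, HKDC1, PFKFB1, PFKFB2 and genes that overlap members. Values of 2 genes of the further lists are not reported here, though the list counts include them.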

Additional observations from a re-analysis of the deposited data

How the results depend on the processing

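Among the members, 4 were called higher under all settings tried but the test against a 1.5-fold change, which called 0 higher, 0 lower and 373 genes in all. The number called lower was 13 with DESeq2 and 14 with upper-quartile scaling, total counts alone, no filter, a filter of 1 CPM in 3 libraries and the replicate block. Leaving out 1 library each gave 13 to 16 lower, 4 higher and 4800 to 5288 genes in all, against 14, 4 and 5549.

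The replicate block called 5250 genes, and changed no call of a member. The numbers share no known origin, and deviations of same-numbered libraries correlated at -0.144, -0.224 and -0.148. With the block the other glycolysis and pyruvate genes had 3 higher and the HIF regulation genes 2, against 5 and 3.

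In the list of other glycolysis and pyruvate genes, 3 were higher with DESeq2 and without chromosomes 4 and 11, and 3 to 4 without 1 library. The HIF regulation list had 1 higher with DESeq2 and 1 to 3 without 1 library. The 1.5-fold test left 0 higher and 0 lower in the first list, 0 and 1 in the second, and 2 and 0 among other HIF targets.

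Signs changed only for members that were not called. HK2 was at 0.0027 with DESeq2, 0.013 with upper-quartile scaling, 0.0033 with total counts alone and 0.0091 without a filter, and PGAM1 at 0.0031 with upper-quartile scaling. Without 1 library, HK1 ran from -0.12 to 0.0531, HK2 ran from -0.00574 to 0.0116, GPI ran from -0.00130 to 0.0290, PFKM ran from -0.31 to 0.0333, ALDOA ran from -0.0445 to 0.0103, TPI1 ran from -0.0409 to 0.0203, PGAM1 ran from -0.0402 to 0.0169. The cause was not tested. HK1, with 137 to 180 counts per library, and PFKM, with 27 to 45, rest on few counts.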
